A study of Mus musculus with 22 samples.

Results

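Plet1, Slc6a14 and Asprv1 were followed in the intestine of mice with a normal or a poorly dimerising glucocorticoid receptor (GR), on normal or zinc-supplemented drinking water. These 3 of the 54838 annotated genes in the count table were chosen by their log2 fold change between GRDim and GRWT mice on water, which was among the largest rises in an earlier analysis of the same libraries. That difference is therefore a description here. The question put to the data was whether zinc lowers them. GRWT mice carry the wild-type receptor, and GRDim mice carry a point-mutant receptor in all their cells that dimerises poorly. All were female FVB/N mice 8 to 14 weeks old, given either normal drinking water or 25 mM ZnSO4 in it over 7 days. The design text of the series names dexamethasone as a further treatment, but no sample is labelled with it. Of the 22 libraries, GRWT mice gave 5 on each kind of water and GRDim mice 6 on each. The labels call 12 of them ileum and 10 IEC, for intestinal epithelial cells. They do not say whether each library came from a separate mouse, so p-values measure only the spread between these libraries.

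The 3 proteins do different work in epithelia. Plet1, placenta expressed transcript 1, is a protein anchored to the cell surface by a lipid, and it is made by progenitor cells of several epithelia. Slc6a14 is a transporter that uses sodium and chloride gradients to bring neutral and positively charged amino acids into cells, and it is known to rise in the inflamed gut. Asprv1 is an aspartic protease related to retroviral proteases, best known from the outer layers of the epidermis, where it trims the barrier protein filaggrin. GR itself is a hormone-activated transcription factor that lowers many inflammatory genes, and binding to its full palindromic DNA element takes a receptor dimer.

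The genes lie on 3 chromosomes of the GRCm38 (mm10) genome. Plet1 (ENSMUSG00000032068) spans chr9:50494525-50505482, Slc6a14 (ENSMUSG00000031089) chrX:21714896-21742355 and Asprv1 (ENSMUSG00000033508) chr6:86628164-86629710, all on the plus strand. The promoters are shown because the comparison is between receptors that differ in DNA binding as dimers. Each runs on the plus strand from 250 bases before to 50 bases after the RefSeq start site (GRCm38.p6), and capitals mark the motif named after it.
Plet1, chr9:50494275-50494574: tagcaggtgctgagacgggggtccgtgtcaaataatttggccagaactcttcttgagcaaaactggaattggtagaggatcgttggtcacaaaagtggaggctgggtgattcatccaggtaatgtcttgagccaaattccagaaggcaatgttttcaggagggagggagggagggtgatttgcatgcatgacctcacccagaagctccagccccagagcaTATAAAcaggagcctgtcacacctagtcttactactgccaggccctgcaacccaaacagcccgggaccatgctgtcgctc
Slc6a14, chrX:21714650-21714949: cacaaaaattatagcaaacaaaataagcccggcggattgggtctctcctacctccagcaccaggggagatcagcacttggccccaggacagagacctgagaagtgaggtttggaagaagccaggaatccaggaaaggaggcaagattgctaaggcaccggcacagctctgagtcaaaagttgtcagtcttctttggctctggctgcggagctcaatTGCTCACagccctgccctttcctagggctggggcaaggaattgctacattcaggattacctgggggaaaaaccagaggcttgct
Asprv1, chr6:86627924-86628223: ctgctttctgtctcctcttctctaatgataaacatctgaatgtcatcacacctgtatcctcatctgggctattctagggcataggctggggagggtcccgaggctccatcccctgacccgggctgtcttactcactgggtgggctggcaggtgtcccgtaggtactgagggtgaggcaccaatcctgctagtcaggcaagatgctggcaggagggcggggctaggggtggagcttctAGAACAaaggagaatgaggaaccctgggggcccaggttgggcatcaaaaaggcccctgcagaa
In the Plet1 promoter the capitals mark TATAAA, the TATA box, which begins 30 bases before the start site. These letters occur on the gene strand of 8.319% of the 32851 RefSeq promoter windows of this length. In the Slc6a14 promoter they mark TGCTCAC, a match to TGCNCNC, the core of the metal response element, which 51.03% of windows hold on either strand. In the Asprv1 promoter they mark AGAACA, the left arm of the glucocorticoid response element, which 18.97% of windows hold on either strand. The full element, AGAACA and TGTTCT with 3 bases of any kind between them, is in none of these 3 windows and in 0.009132% of all windows. The core of the interferon-stimulated element, GAAA and GAAA with 2 bases of any kind between them (3.443% of windows), and TTCNNNGAA, a site for STAT factors (8.298%), are likewise in none of the 3, both strands searched.

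Before the genes are read, the libraries have to be split by muscle content, because the tissue label does not follow it. Myh11, a myosin of smooth muscle, was over 100 CPM (the count scaled to a library total of 1000000) in 12 libraries, called muscle-rich, and between 3.22 and 20.5 CPM in the other 10, called muscle-poor. In GRDim mice on water the 3 IEC libraries were muscle-rich and the 3 ileum libraries muscle-poor, while on zinc the 3 IEC libraries were muscle-poor and the 3 ileum libraries muscle-rich. So within a muscle class the zinc comparison in GRDim mice also compares the 2 tissue labels, and these cannot be told apart. In GRWT mice, on either water, the muscle-rich class held 2 IEC and 1 ileum library and the muscle-poor class 2 ileum libraries. Library totals ran from 13149951 to 15620744 counts, so that 3 counts, the floor of detection, stood for 0.192 to 0.228 CPM. Mt1, a metallothionein gene that zinc induces, was at 58.8 to 119 CPM in GRDim and 29.4 to 152 CPM in GRWT mice on water. On zinc it was at 1213 to 1712 CPM in GRDim and at 1761 to 2884 CPM in GRWT mice, without overlap between the genotypes. Epithelial markers summed to 19989 to 30394 CPM over all libraries. They were lowest in the muscle-rich GRDim water libraries, at 19989 to 21206 CPM. The muscle-rich GRDim zinc libraries had 22700 to 23905 CPM, and those of GRWT mice had 22559 to 23556 CPM on water and 22383 to 24279 CPM on zinc. The part of this in the results was not tested. Fabp6, an ileal bile acid binding protein, was at 4387 to 10866 CPM in 21 libraries but at 11.7 CPM in GRWT zinc ileum replicate 3. That library, whose ileal markers are nearly absent, stands apart from its label, and the tests below were also run without it. The calls made on the 3 genes over all libraries stood in that fit, while some calls on other genes were lost.

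In GRDim mice on water, the condition that chose the genes, Plet1 was at 108, 125 and 70.4 CPM in the muscle-rich libraries and at 57.2, 34.1 and 12.1 CPM in the muscle-poor ones. Slc6a14 was at 576, 714 and 728 CPM in the muscle-rich libraries and at 247, 224 and 202 CPM in the muscle-poor ones. Asprv1 was at 4.04, 3.33 and 3.06 CPM in the muscle-rich libraries and at 9.64, 6.05 and 5.66 CPM in the muscle-poor ones. Plet1 and Slc6a14 were thus higher in every muscle-rich library than in any muscle-poor one, and Asprv1 was the other way round. Scaled by the length of their exons, the mean levels over these 6 libraries were 131 CPM per kilobase for Slc6a14, 34.8 for Plet1 and 3.42 for Asprv1. The spread per kilobase was wide (SD 73.3, 22.0 and 1.58, n = 6), but the order of the genes held in the means of both muscle classes.

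**Figure D1:**
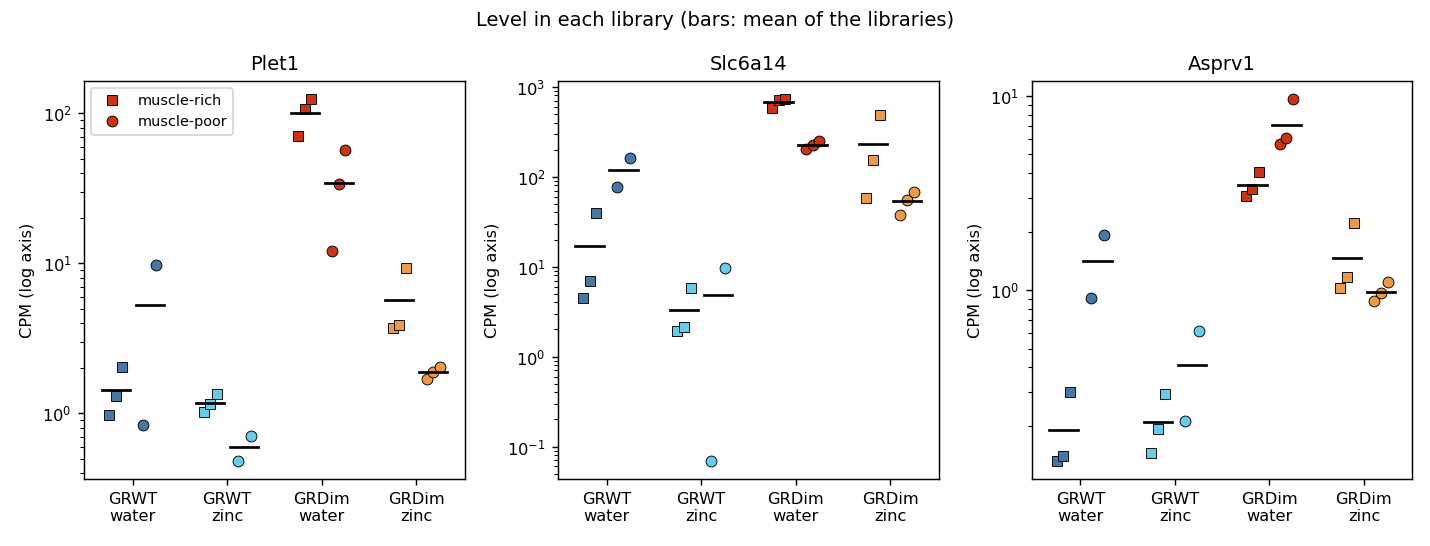
CPM of each gene in every library on a log axis, by condition on the horizontal axis, with squares for muscle-rich and circles for muscle-poor libraries and bars for the mean of each class. In both classes the GRDim zinc libraries sit below the GRDim water libraries and above the GRWT zinc libraries for all 3 genes.

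In GRWT mice on water the same genes were lower. Plet1 was at 1.31, 0.969 and 2.04 CPM in the muscle-rich libraries and at 0.837 and 9.80 CPM in the muscle-poor ones. Slc6a14 was at 6.90, 4.47 and 39.0 CPM in the muscle-rich libraries and at 77.0 and 159 CPM in the muscle-poor ones. Asprv1 was at 0.131, 0.298 and 0.140 CPM in the muscle-rich libraries, 2 of them at or under 3 counts, and at 0.913 and 1.93 CPM in the muscle-poor ones. GRWT water ileum replicate 3 held the highest value of all 3 genes in this condition. In the class means, GRDim over GRWT on water was 70.1-fold for Plet1, 40.1-fold for Slc6a14 and 18.3-fold for Asprv1 in muscle-rich libraries, against 6.48-fold, 1.90-fold and 5.00-fold in muscle-poor ones. In the fit over all libraries, Plet1, Asprv1 and Slc6a14 stood at ranks 6, 23 and 31 from the top of 16389 genes in this contrast, and no test is read from it.

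For zinc in GRDim mice, Plet1 and Asprv1 were called lower and Slc6a14 was not. On zinc, Plet1 was at 3.73, 3.90 and 9.36 CPM in the muscle-rich libraries and at 1.90, 2.05 and 1.70 CPM in the muscle-poor ones. No zinc library reached the lowest water library in either class, and the mean on zinc was 5.61% of that on water in the muscle-rich class and 5.47% in the other. Plet1 fell by 4.10 ± 0.59 on the log2 scale (estimate ± SE, edgeR's quasi-likelihood test, adjusted p = 0.00183 over all genes), the second lowest log2 fold change of the 16389 genes tested. The water libraries of this contrast are those in which the genes were chosen for high values, so its size, rank and p are in part set by that choice, for Asprv1 and Slc6a14 too. In these bulk samples, fewer cells of a type and less RNA per cell cannot be told apart.

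Asprv1 on zinc was at 1.02, 1.16 and 2.22 CPM in the muscle-rich libraries and at 0.875, 1.10 and 0.962 CPM in the muscle-poor ones. Again no zinc library overlapped the water libraries, and the mean on zinc was 42.2% of that on water in the muscle-rich class and 13.8% in the other. Asprv1 fell by 1.93 ± 0.38 on the log2 scale (edgeR, adjusted p = 0.0162). The zinc effect on this gene was 1.64 ± 0.50 log2 units smaller in size in muscle-rich than in muscle-poor libraries, but this difference had an adjusted p of 0.9999 (edgeR; unadjusted p = 0.00444) and was not called. On zinc the gene rested on 12 to 31 counts per library. With the tissue label in place of the muscle class the Asprv1 call was lost (-1.98 on the log2 scale, edgeR, adjusted p = 0.155). It was also lost with no covariate (-2.12, edgeR, adjusted p = 0.2125). Those fits called only 5 and 4 of all genes lower, against 53 with the muscle class. The Asprv1 call was lost, narrowly, without GRDim zinc IEC replicate 6 (edgeR, adjusted p = 0.0501).

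Slc6a14 on zinc was at 57.6, 153 and 488 CPM in the muscle-rich libraries and at 67.7, 37.6 and 55.1 CPM in the muscle-poor ones. Within each class every zinc library was below every water library, with means at 34.6% and 23.8% of those on water, but the classes together overlap because GRDim zinc ileum replicate 3, at 488 CPM, was above all muscle-poor water libraries. The log2 fold change was -1.64 ± 0.80 (edgeR, adjusted p = 0.332, 95% interval -3.32 to 0.04), which did not pass. Leaving out GRDim zinc ileum replicate 3 gave -2.56 (adjusted p between 0.111 and 0.499 over all fits that left out a library), while a replicate block, in which the unnumbered libraries are dropped, gave -3.30 and a call (adjusted p = 0.0429). The same library was also the highest of the GRDim zinc libraries for Plet1 and Asprv1. Of the 3 genes, 2 were thus called lower on zinc in GRDim mice, against 0.323% of all genes tested.

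The muscle classes were also fitted apart. In muscle-rich libraries alone, Plet1 fell by 4.14 on the log2 scale (edgeR, adjusted p = 0.000699) and Asprv1 fell by 1.22 (adjusted p = 0.0185), while Slc6a14 was at -1.52 (adjusted p = 0.328), with 0.531% of genes called lower. In muscle-poor libraries alone, none of the 3 was called, against 0.0288% of genes called lower. There the log2 fold changes were -4.17 for Plet1 (adjusted p = 0.214), -2.04 for Slc6a14 (adjusted p = 0.523) and -2.83 for Asprv1 (adjusted p = 0.0861). The Plet1 estimates lay close together in the 2 classes, and in a fit of all libraries the difference between them was 0.06 ± 0.83 log2 units (95% interval -1.69 to 1.82), not called (edgeR called 0.00% of genes in either direction in that test). Compared within a tissue label instead, Plet1 and Asprv1 on zinc did not overlap water among IEC libraries or among ileum libraries, and Slc6a14 did not overlap among IEC libraries.

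**Figure D2:**
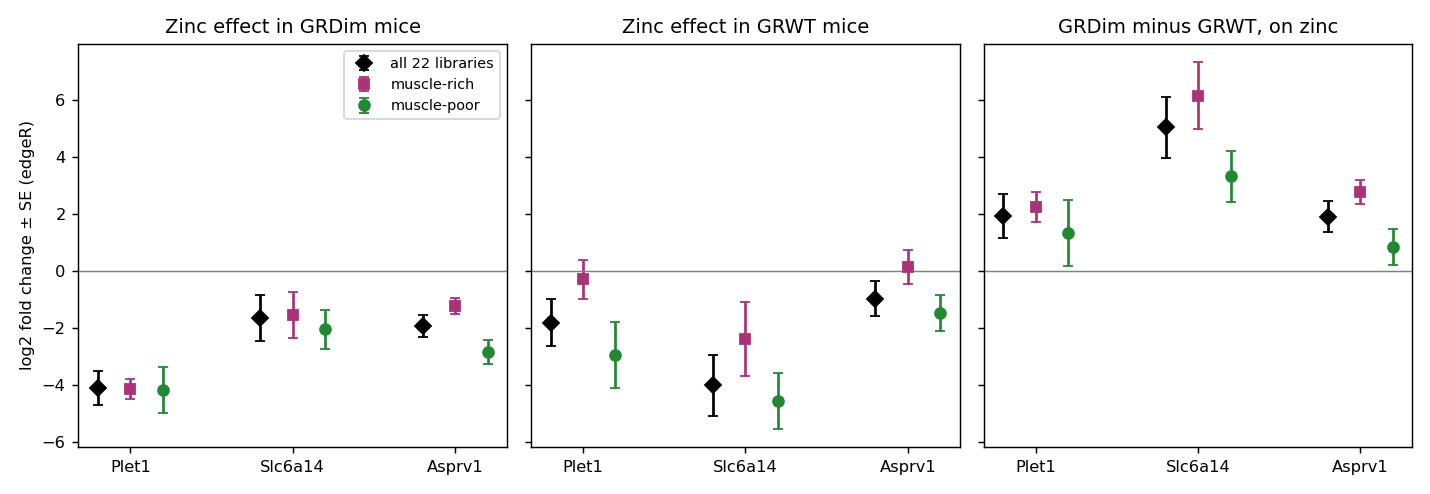
Log2 fold change with its SE (edgeR) for each gene in 3 comparisons, fitted over all 22 libraries (diamonds), muscle-rich libraries alone (squares) and muscle-poor libraries alone (circles). The zinc effect in GRDim mice is below 0 for each gene in each fit, from -4.17 for Plet1 to -1.22 for Asprv1, and the GRDim minus GRWT difference on zinc is above 0, from 0.85 for Asprv1 to 6.16 for Slc6a14.

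The genes were also compared between GRDim and GRWT mice on zinc, where neither group is part of the contrast that chose the genes, although the same fit estimated both contrasts. In GRWT mice on zinc, Slc6a14 was at 1.92, 2.11 and 5.82 CPM in the muscle-rich libraries and at 9.60 and 0.0685 CPM in the muscle-poor ones. The last value is a single count in GRWT zinc ileum replicate 3 (exact Poisson 95% interval 0.00173 to 0.381 CPM, counting error only). No GRDim zinc library came down to these values, and Slc6a14 was 5.06 ± 1.07 log2 units higher in GRDim mice (edgeR, adjusted p = 0.0125), the fifth highest of the genes tested. The difference was 6.16 (adjusted p = 0.00914) in muscle-rich libraries alone and 3.34 (adjusted p = 0.146) in muscle-poor ones.

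Asprv1 was at 0.192, 0.146 and 0.291 CPM in the muscle-rich GRWT zinc libraries and at 0.212 and 0.616 CPM in the muscle-poor ones, 3 of the 5 at or under 3 counts. The GRDim zinc libraries did not overlap them in either class. Asprv1 was 1.92 ± 0.55 log2 units higher in GRDim mice (edgeR, adjusted p = 0.0337), with 2.77 in muscle-rich libraries alone (adjusted p = 0.000399) and 0.85 in muscle-poor ones (adjusted p = 0.401). The call over all libraries was lost in 6 of the 22 fits that left out a library and lay between 1.52 and 2.36 in them. Those were the fits without GRDim zinc ileum replicate 1, 2 or 3, GRWT zinc IEC replicate 4 or 5, or GRWT zinc ileum replicate 2, with adjusted p up to 0.0795. It was also lost when the tissue label was the covariate (adjusted p = 0.0887), with no covariate (0.158) and without a count filter (0.0606).

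Plet1 was at 1.34, 1.02 and 1.16 CPM in the muscle-rich GRWT zinc libraries and at 0.706 and 0.479 CPM in the muscle-poor ones. Every GRDim zinc library was higher than these within its class, but the log2 difference of 1.94 ± 0.78 did not pass (edgeR, adjusted p = 0.109). It did in muscle-rich libraries alone (2.26, adjusted p = 0.0216), without GRWT water ileum replicate 3 (adjusted p = 0.0103) and with DESeq2 (1.885, adjusted p = 0.0345). Over all libraries, 2 of the 3 genes were called higher in GRDim mice on zinc, against 1.64% of the genes tested. In this comparison all 3 were called in the fit of muscle-rich libraries, against 2.34% of genes, and none in that of muscle-poor libraries, against 0.0431%. Set against untreated GRWT mice, the GRDim zinc means in muscle-rich libraries were 3.93-fold for Plet1, 13.9-fold for Slc6a14 and 7.72-fold for Asprv1, with no overlap, and no test was made of this pair of conditions. In muscle-poor libraries Plet1 and Asprv1 of GRDim mice on zinc overlapped the GRWT water libraries, and Slc6a14 lay below them, at 45.2% of their mean.

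Ordered by the mean over all libraries of a condition, each gene was highest in GRDim mice on water, then in GRDim mice on zinc, then in GRWT mice on water and lowest in GRWT mice on zinc. These means pool the muscle classes, and in muscle-poor libraries alone the middle places turn, GRDim mice on zinc being at 35.4% of GRWT mice on water for Plet1, 45.2% for Slc6a14 and 68.9% for Asprv1. In muscle-rich libraries alone the last places turn for Asprv1, whose mean was 0.210 CPM in GRWT mice on zinc and 0.190 CPM on water, with overlap. Plet1 had means of 67.7 ± 42.9, 3.77 ± 2.90, 2.99 ± 3.83 and 0.942 ± 0.349 CPM (SD, n = 6, 6, 5 and 5). Slc6a14 had means of 448 ± 252, 143 ± 174, 57.4 ± 64.2 and 3.90 ± 3.81 CPM. Asprv1 had means of 5.30 ± 2.45, 1.22 ± 0.496, 0.683 ± 0.768 and 0.291 ± 0.189 CPM. Neighbours in this order overlapped in their libraries, except the GRDim water and GRDim zinc libraries of Plet1 and Asprv1.

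In GRWT mice none of the 3 genes was called lower on zinc, against 0.0366% of genes. Slc6a14 had a log2 fold change of -4.01 ± 1.06 (edgeR, adjusted p = 0.128), the second lowest of all genes tested, Plet1 of -1.80 ± 0.83 (adjusted p = 0.309) and Asprv1 of -0.97 ± 0.61 (adjusted p = 0.451). These values rest in part on GRWT water ileum replicate 3, and without it they were -3.11, -0.21 and -0.24. For Slc6a14 the call depended on the tool and the libraries, being made by DESeq2 (adjusted p = 0.00313) and by edgeR without GRWT zinc ileum replicate 2 (-5.09, adjusted p = 0.0499). Whether zinc acted differently in the 2 genotypes was tested as an interaction, which contains the water difference that chose the genes, and none of the 3 passed. The interaction was -2.29 ± 1.05 for Plet1 (edgeR, adjusted p = 0.660), 2.37 ± 1.27 for Slc6a14 (adjusted p = 0.666) and -0.96 ± 0.76 for Asprv1 (adjusted p = 0.772), in log2 units. Without GRWT water ileum replicate 3 it was -3.91 for Plet1, and with the replicate block it turned to -0.16 for Slc6a14, neither called. Of all genes, edgeR called 0 (0.00%) in either direction, with 1227 at an unadjusted p under 0.05, and DESeq2 called 3 higher and 0 lower. In muscle-rich libraries alone edgeR called 36 higher and 6 lower, and with a replicate block 7 higher.

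The genes were then set against each other over libraries, on log2(CPM + 0.5). Over the 12 muscle-rich libraries Pearson's r was 0.882 for Plet1 with Slc6a14, 0.942 for Plet1 with Asprv1 and 0.931 for Slc6a14 with Asprv1, and Spearman's rho was 0.902, 0.797 and 0.790. Over the 10 muscle-poor libraries r was 0.730, 0.956 and 0.690, and rho 0.891, 0.952 and 0.879. These points include the water libraries that chose the genes, which are high for all 3, so the values are a description. Without the 2 libraries farthest from the median of the first gene named, r was 0.872, 0.911 and 0.929 in the muscle-rich class and 0.723, 0.890 and 0.894 in the other.

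Within conditions no pair passed the test. Over the 11 zinc libraries, each centred on the mean of its condition and muscle class, r was 0.623 for Plet1 with Slc6a14 (rho 0.591), 0.640 for Plet1 with Asprv1 (rho 0.282) and 0.0232 for Slc6a14 with Asprv1 (rho -0.0273). Exact two-sided permutation within the cells gave p = 0.153, 0.218 and 0.933 for r, and p = 0.236, 0.569 and 0.956 for rho, with values adjusted over these 6 p of 0.472, 0.472 and 0.956 for r and of 0.472, 0.854 and 0.956 for rho. Without the 2 libraries farthest from the median r was 0.378, -0.0336 and 0.826. The Plet1 with Asprv1 relation therefore rested on GRDim zinc ileum replicates 1 and 3, and the low value of Slc6a14 with Asprv1 on GRWT zinc ileum replicates 2 and 3. Centred in the same way, all 22 libraries gave r = 0.415, 0.682 and 0.0290, as a description.

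**Figure D3:**
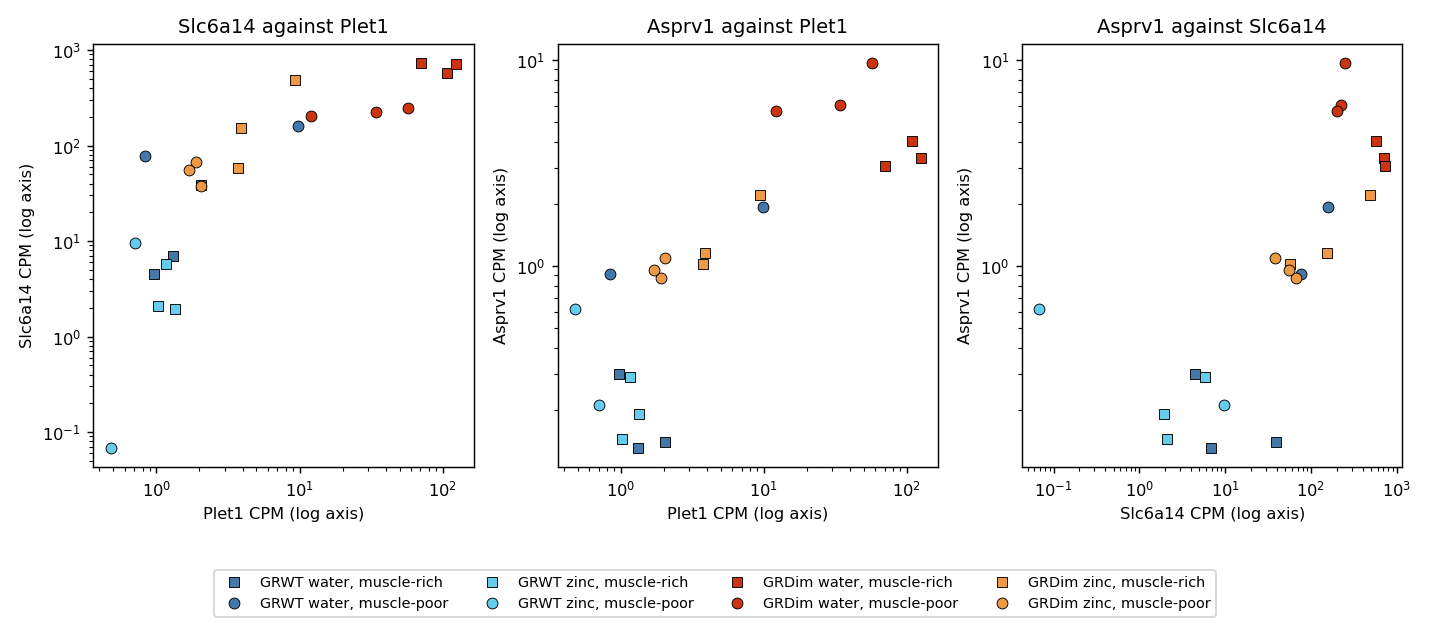
CPM of each pair of genes on log axes, each point a library, coloured by condition, with squares for muscle-rich and circles for muscle-poor libraries. In GRDim water libraries Asprv1 is higher in the muscle-poor class (5.66 to 9.64 CPM) while Plet1 and Slc6a14 are higher in the muscle-rich class, so the 2 classes of GRDim water libraries form separate clusters in the panels with Asprv1.

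Genes most like each of the 3 were found by Pearson's r of log2(CPM + 0.5) over all 22 libraries, centred within the muscle classes. The search ran among 12779 tested genes with a mean of at least 1 CPM. Genes with provisional names and immunoglobulin, T cell receptor and mitochondrial genes were left out. All 3 genes of this report share high water GRDim libraries by choice, so r is a description. Nearest to Plet1 were Ifit2, an interferon-induced protein (r = 0.964), B3gnt7, a glycosyltransferase (0.963), Ltf, which encodes lactoferrin (0.952), Asprv1 itself (0.938) and Tgtp1, a GTPase induced by interferon (0.936). Nearest to Slc6a14 were Mlkl, the effector of necroptosis (0.955), Fa2h, a fatty acid hydroxylase (0.955), Upp1, a uridine phosphorylase (0.953), Casp1, an inflammatory caspase (0.950), and Ifi47, a GTPase (0.949). Nearest to Asprv1 were Slc25a1, the mitochondrial citrate carrier (0.962), B3gnt7 (0.960), Ifit2 (0.958), Gbp4, a guanylate-binding protein (0.952), and Tgtp1 (0.947). Slc6a14 stood further off, at rank 229 by likeness to Plet1 (r = 0.828) and at rank 280 by likeness to Asprv1 (r = 0.817).

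A list of genes known to respond in the ileal epithelium to adherent microbes was read in the same comparisons. This list, like the others below, was chosen with earlier results of these data known, so its counts are a description and not a test. Of its 13 genes, 3 fell on zinc in GRDim mice, where 0.323% of all genes were called lower. They were Duoxa2, the maturation factor of the hydrogen peroxide-making oxidase Duox2 (fell by 1.72 ± 0.39 on the log2 scale, edgeR, adjusted p = 0.0322), Fut2, which fucosylates surface glycans (fell by 1.39 ± 0.35, adjusted p = 0.0486), and Reg3g, an antimicrobial lectin (fell by 1.38 ± 0.32, adjusted p = 0.0322). None rose, and the median of the list was -0.81, against 0.0027 for all genes. On zinc, 5 of the 13 were higher in GRDim than in GRWT mice (1.64% of all genes were), among them Duoxa2 (2.25 ± 0.48, adjusted p = 0.0129) and Saa1, a serum amyloid A (3.48 ± 0.88, adjusted p = 0.0225). The other 3, named after their values were seen, were Duox2, Nos2 and Saa3, and Il18 was lower, also named so. On water 6 were higher (3.25% of all genes were), led by the chemokine gene Cxcl5 (4.70), Saa1 (2.75) and Duoxa2 (2.36). With the tissue label in place of the muscle class, none of the 13 passed in either zinc comparison and Duoxa2 alone on water. Calls of all genes also fell in that fit, to 5 from 53 lower on zinc in GRDim mice. By genotype they fell to 14 from 269 higher and to 4 from 359 lower on zinc, and to 111 from 532 higher on water. Within a label, zinc in GRDim mice is compared across muscle classes, so calls lost there, here and below, are not particular to the genes named. Leaving out GRWT zinc ileum replicate 3 gave 4 lower on zinc in GRDim mice (0.820% of all genes in that fit were) and 4 higher by genotype on zinc (1.68% were). The latter were Duox2, Duoxa2, Nos2 and Saa3, so that the Saa1 and Il18 calls were lost. Leaving out GRDim zinc ileum replicate 3 gave 3 and 4, the latter being Duoxa2, Saa1, Saa2 and Saa3, so that the Duox2, Nos2 and Il18 calls were lost. The share of all genes called in that last fit is not given here.

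**Figure D4:**
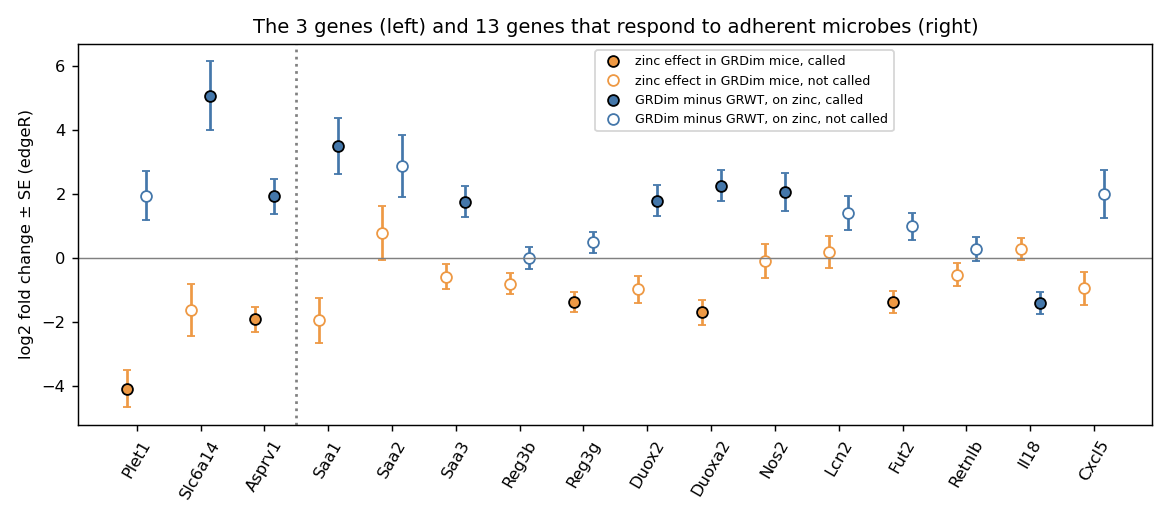
Log2 fold change with its SE (edgeR, 22 libraries) of the 3 genes and of the 13 genes that respond to adherent microbes, for the zinc effect in GRDim mice (orange) and for GRDim minus GRWT on zinc (blue), filled where called. Plet1 at -4.10 lies below every gene of the list in the zinc effect, and Slc6a14 at 5.06 above every one in the genotype difference.

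Relatives of Slc6a14 and Asprv1 were counted in the same comparisons. Of 19 other members of the Slc6 family 11 were tested, and in GRDim mice 1 rose on zinc (0.232% of all genes did), Slc6a20b, a proline transporter (1.31 ± 0.29 on the log2 scale, edgeR, adjusted p = 0.0238), and none fell. By genotype Slc6a20b and its close copy Slc6a20a were lower in GRDim mice, at -1.97 and -1.05 on water and at -0.98 and -1.06 on zinc, and since reads mapping to several places were left out of the counting, reads that these copies share are not in their values. Both calls on zinc were lost without GRWT zinc ileum replicate 3, that of Slc6a20b also without GRDim zinc ileum replicate 3, and with the tissue label no Slc6 relative was called in these 3 comparisons. Of all genes tested, 2.43% were called lower in GRDim mice on water and 2.19% on zinc. None of 15 other amino acid transporters was called on zinc in GRDim mice (median 0.04), and 3 were lower in GRDim mice on zinc. On water Slc15a1, a peptide transporter, was lower in GRDim mice (-1.01 ± 0.20), a call lost with the tissue label. The 3 calls on zinc were lost when the tissue label replaced the muscle class, and when GRWT zinc ileum replicate 3 was left out, in which the transporters summed to 5729 CPM, against 2340 to 3121 CPM in the other GRWT zinc libraries. Of 10 other aspartic proteases 6 were tested and none was called in any of the 4 comparisons over all libraries. Ctse was called higher in GRDim mice on water without GRWT zinc ileum replicate 3, and Ctse and Napsa without GRWT water ileum replicate 3. Of 13 genes of regenerating epithelium 12 were tested and none was called on zinc in GRDim mice, while Ly6a, a surface antigen of regenerating gut, was higher in GRDim mice by 2.02 log2 units on water and by 1.22 on zinc. Il33, an alarmin cytokine, was lower in GRDim mice on zinc (-2.68 ± 0.79, adjusted p = 0.0396), a call lost with the tissue label or without either of the zinc ileum replicates 3. Clu, which marks revival stem cells, rose on zinc in GRWT mice (2.64 ± 0.52, adjusted p = 0.0367), as did 20 of all genes, and this call was lost with the tissue label or without GRWT zinc or GRWT water ileum replicate 3. The Ly6a call on zinc was lost with the tissue label and without GRDim zinc ileum replicate 3, and Ly6a was called lower on zinc in GRDim mice when GRWT zinc ileum replicate 3 or GRWT water ileum replicate 3 was left out.

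Markers of other cell types moved with some of these values. The summed level of 8 T cell markers was 331 to 533 CPM in GRDim mice on water, 192 to 287 on zinc, 74.7 to 429 in GRWT mice on water and 68.1 to 329 on zinc. Of these 8 markers, 7 were higher in GRDim mice on water (3.25% of all genes were), and none was with the tissue label. None was called for zinc in GRDim mice, although all 8 had negative log2 fold changes (median -0.57), and none by genotype on zinc. Without GRWT zinc ileum replicate 3, Gzmb was called lower on zinc in GRDim mice and 5 of the 8 were called higher by genotype on zinc, against 0.820% and 1.68% of all genes in that fit. GRWT water ileum replicate 3, the highest of its condition for the 3 genes, was also the highest there in T cell markers, at 429 CPM, and the part of these cells in the result was not tested. Of 12 neutrophil markers 3 were tested, with sums of 1.80 to 9.19 CPM in GRDim mice on water, 0.875 to 4.45 on zinc, 0.532 to 2.17 in GRWT mice on water and 0.353 to 2.62 on zinc. Ly6g and Elane were at 0 in all 22 libraries, and the other markers not tested were at 6 counts or fewer in every library. In GRDim mice on zinc, Ltf was called (fell by 1.99 ± 0.40 on the log2 scale, adjusted p = 0.0171). On water Ltf and Retnlg were higher in GRDim mice, by 2.47 and 2.21 log2 units, and on zinc Retnlg was, by 1.55 ± 0.43 (adjusted p = 0.0298), a call lost without GRDim zinc ileum replicate 3. With the tissue label Ltf on water was the one neutrophil call left of these 4. The part of these cells was not tested.

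Squamous markers were set beside Asprv1, the epidermal protease. Of 15 such markers 2 were tested, their sum was 7.94 to 17.0 CPM over all libraries, Ivl and Sprr1b were at 0 throughout, and Krt5 and Lor were at 0 in 19 of 22 libraries each. Markers of M cells, the antigen-sampling cells over lymphoid follicles, summed to 192 to 236 CPM in GRDim mice on water, 156 to 202 on zinc, 149 to 181 in GRWT mice on water and 42.9 to 213 on zinc, and none of 6 tested was called for zinc in GRDim mice, all with negative log2 fold changes. By genotype Tnfaip2 was higher in GRDim mice on water (0.83 ± 0.16) and Spib lower on zinc (-1.75 ± 0.52), both lost with the tissue label or without GRWT zinc ileum replicate 3, Tnfaip2 also without GRWT water and Spib also without GRDim zinc ileum replicate 3. B and plasma cell markers summed to 3997 to 5071 CPM in the muscle-rich GRDim water libraries and to 3510 to 4592 on zinc, and to 1463 to 1907 and 1103 to 1995 CPM in those of GRWT mice. In muscle-poor libraries they summed to 28.0 to 40.5 CPM in GRDim mice on water and 9.54 to 22.0 on zinc, without overlap, and to 8.54 to 16.8 CPM in GRWT mice on either water, and their part in the result was not tested. Of these 6 markers, Jchain and Mzb1 were called higher in GRDim mice on water (3.25% of all genes were). On zinc Mzb1 was (1.64% were), a call lost with the tissue label, and none was called for zinc in GRDim mice. Of 7 large-intestinal markers 4 were tested, and none was called for zinc in GRDim mice. By genotype Aqp4 was higher in GRDim mice, by 1.46 ± 0.18 log2 units on water and 1.02 ± 0.18 on zinc, the latter call lost with the tissue label, and Mptx1 was lower on water (-1.06 ± 0.27), a call lost in the same way. Car1 was called higher on zinc as well without GRWT water ileum replicate 3, and Hoxd13 was at 0 in all libraries. Ileal markers in the muscle-rich class summed to 6117 to 7590 CPM in GRDim mice on water and 6692 to 11073 on zinc, against 9897 to 11580 CPM in GRWT mice on water and 11184 to 13207 on zinc. Within that class they were thus lower in every GRDim library than in any GRWT library on water and again on zinc. The lowest of the GRDim zinc libraries was ileum replicate 3, the highest for the 3 genes, and the part of this in the results was not tested.

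Reads of neighbouring genes bear on Plet1 alone. An antisense gene, Plet1os, overlaps its exons by 261 bases on the minus strand, and the strand setting of the counting is not given in the sources used here. Plet1os had 9 to 12 counts in the muscle-rich GRDim water libraries and 0 to 4 counts in every other library, against 1082 to 1721 counts of Plet1 in the former. Gm25553, a ribosomal RNA gene inside an intron of Slc6a14, shares no exon bases with it and had 0 counts throughout.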

How the data were processed

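The deposited table holds raw read counts per gene, made by the authors from bulk RNA sequencing of 22 libraries. Per the labels, the submitters' processing notes and the study's methods, reads were trimmed with Trimmomatic, mapped to mm10 with HISAT2 2.0.4 and counted with featureCounts, leaving out multimapping reads. The annotation release and strand setting are not given in the sources used here. Of 54838 gene identifiers, 54809 were named from GENCODE vM21. Where 2 GRDim water ileum columns carried 1 name, they were kept as unnumbered libraries a and b.

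The 3 genes and all gene lists were chosen with earlier results of these data known. CPM is the count scaled to a library total of 1000000 (13149951 to 15620744 counts). Tests used edgeR 4.0.16 in R 4.3.3 (TMM, filterByExpr, robust quasi-likelihood F tests, Benjamini-Hochberg adjustment over 16389 genes), over all libraries, with muscle class (Myh11 over 100 CPM) as covariate. A gene was called at an adjusted p under 0.05 and a log2 fold change beyond 0.8, and an interaction or class difference at the adjusted p alone. The SE is the estimate divided by the square root of F. The script was tested on simulated data. Lists were described by counts of called genes and their median, and correlations used a pseudocount of 0.5 CPM. Genes named from a list were up to 3 called per direction with the largest change in the zinc effect in GRDim mice and the genotype difference on water, or where none was called the most abundant; from likeness, the nearest 5. Alternatives were each class alone, the tissue label or no covariate, DESeq2 1.42.0 or its size factors, no or a stricter count filter (10 counts in 6 libraries), a replicate block, other pseudocounts and leaving out each library. Intervals and floors cover counting error only.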

Additional observations from a re-analysis of the deposited data

Results flagged for a closer look

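In 4 cases, a library stood apart within its condition by Dixon's test at 95%, which chance alone brings up in about 1 of 20 groups. GRDim zinc ileum replicate 3 was the highest of 6 libraries for Plet1 (9.36 CPM), for Slc6a14 (488 CPM) and for Asprv1 (2.22 CPM). GRWT water ileum replicate 3 was the highest of 5 for Plet1 (9.80 CPM). The first is muscle-rich and the second muscle-poor, and the conditions pool both classes.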

How the results depend on the processing

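All log2 fold changes below are as above (edgeR unless another tool is named). For zinc in GRDim mice, muscle-poor libraries alone gave -4.17 for Plet1 and -2.83 for Asprv1, neither called, and Asprv1 was not called with the tissue label (-1.98) or with no covariate (-2.12). Leaving out each library gave -4.52 to -3.91 for Plet1, -2.56 to -1.43 for Slc6a14 and -2.33 to -1.75 for Asprv1. For GRDim against GRWT on zinc, Plet1 was called in muscle-rich libraries alone (2.26) and by DESeq2 (1.89), and lay at 1.52 to 2.03 without each library. Slc6a14 was not called in muscle-poor libraries alone (3.34) and lay at 4.23 to 5.90 without each library. Asprv1 was not called in muscle-poor libraries alone (0.85), with the tissue label (2.08), with no covariate (1.81), without the count filter (1.91) or over the 20 numbered libraries (1.93, chosen after seeing the data), and lay at 1.52 to 2.36. For zinc in GRWT mice, DESeq2 called Slc6a14 (-4.01), Asprv1 was at 0.16 in muscle-rich libraries alone, and leaving out each library gave -2.17 to -0.21 for Plet1, -5.09 to -3.11 for Slc6a14 and -1.47 to -0.24 for Asprv1. The interaction lay at -3.91 to -1.93, 1.30 to 3.42 and -1.72 to -0.51, and the class difference of the zinc effect in GRDim mice at -0.52 to 0.47, -0.58 to 1.01 and 1.23 to 1.83 for Plet1 (0.28 without GRDim zinc ileum replicate 1), Slc6a14 and Asprv1, none called. The described difference on water, over the same order of genes, was 6.12, 5.32 and 4.15 in muscle-rich libraries, 2.59 and 0.82 for Plet1 and Slc6a14 in muscle-poor ones, and 3.90 to 5.93, 2.22 to 3.55 and 2.67 to 3.63 without each library. The causes were not tested.

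The replicate numbers in the titles do not pair these libraries. Deviations of 25 same-numbered pairs correlated at -0.201 to 0.290 (median -0.0295), and 4 of 20 libraries correlated best with their own number. With a replicate block, which drops the unnumbered libraries, Slc6a14 fell by 3.30 on zinc in GRDim mice (adjusted p = 0.0429), its interaction turned to -0.16, and the difference on water was 5.67, 4.92 and 3.90.

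Genes called on zinc in GRDim mice were 53 lower and 38 higher, and between 4 and 143 and between 4 and 142 under the alternatives. By genotype on zinc they were 269 higher (6 to 393) and 359 lower (2 to 633), and on zinc in GRWT mice 20 higher (5 to 121) and 6 lower (1 to 21).

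Among correlations, Slc6a14 with Asprv1 in muscle-poor libraries was 0.894 without the 2 farthest. Over centred zinc libraries Plet1 with Slc6a14 was 0.378 and Plet1 with Asprv1 -0.0336 without the 2 farthest, the latter 0.411 and 0.829 with pseudocounts of 0.1 and 2. Slc6a14 with Asprv1 was -0.238, 0.363 and 0.826 in the same settings. Without GRWT zinc ileum replicate 3, Plet1 with Slc6a14 was 0.837 in muscle-poor and 0.734 in centred zinc libraries, Slc6a14 with Asprv1 0.889 in muscle-poor libraries, and Plet1 with Asprv1 0.927 in centred zinc libraries. Over all centred libraries Plet1 with Asprv1 was 0.511, 0.791 and 0.566, and Slc6a14 with Asprv1 -0.191, 0.228 and 0.394.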
